A study of Mus musculus with 6 samples.

Results

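The RGK proteins are a small family of GTP-binding proteins of the Ras superfamily, encoded in the mouse by Rrad (also called Rad), Gem, Rem1 and Rem2. They bind the beta subunits of voltage-gated calcium channels and hold down the calcium current. In the mouse heart, phosphorylation of Rad by protein kinase A releases L-type calcium channels from this restraint during adrenergic stimulation. Rad was named for an association with diabetes in human skeletal muscle. Unlike most Ras proteins, RGK proteins end without the motif that takes up a lipid anchor, and the G3 motif of their GTP-binding fold departs from the common form.

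The 4 genes were taken by symbol from a table of 54352 genes, and 1 row was found for each. The members were chosen by name as a protein family, with the rlog values and authors' folds of these same libraries already known, so their levels and differences are given as a description and no test is read from them. The table holds 6 libraries of mouse heart RNA in 3 groups of 2. In the T2D dnMCUb group, C57BL/6 mice aged 12 weeks at the start were made diabetic (type 2 diabetes, T2D) with a high fat diet, fat giving 60% of its calories, and 1 dose of 75 mg/kg of streptozotocin, which kills insulin-producing cells. These mice then received, by jugular vein 16 to 18 weeks after streptozotocin, an adeno-associated virus (AAV) encoding a FLAG-tagged murine MCUb with 2 point mutations, a dominant negative form (dnMCUb) of a subunit of the mitochondrial calcium uniporter. The T2D empty vector group had the same diabetes and an AAV without that cargo. Hearts were studied 4 weeks after the virus, 5 to 6 months after induction. Control mice ate regular chow and carry the label none for a transgene, so they differ from the T2D empty vector group in diet, streptozotocin and virus together. No age is recorded here for the control mice, so whether they also differ in age is unknown. The promoter of the vector is not given in the sources used here, nor is it said whether each library is a different animal, so errors measure only the spread between libraries.

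Values are regularized logs (rlog) on the log2 scale, which draw each gene's values towards their mean, and depth is unknown for every library. The tissue label was borne out by the defining markers of heart muscle, of which 10 of 10 were tested, with Myh6, the main adult mouse cardiac myosin, at a mean rlog of 18.95. Library 1 of T2D dnMCUb stood apart, at 10.8 on a first principal component that held 46.7% of the variance, against -4.42 to 2.69 for the other libraries. Mcub rlog was 5.62 and 5.47 in T2D dnMCUb, against 5.42 to 5.48 in the other 4 libraries. These values do not tell whether the dnMCUb label is right, since the sources used here do not say if reads of the vector were counted under Mcub, and every direction involving that group rests on the label. The 3 comparisons share groups, T2D empty vector minus control and T2D dnMCUb minus control having the same control libraries.

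The coding sequences show what defines the family. The end of each coding sequence, down to and including the stop codon, is printed 5′ to 3′ from GENCODE M21 (GRCm38), with capitals for the 21 of 33 bases that are the same in the 4 genes.
Rrad (chromosome 8, minus strand): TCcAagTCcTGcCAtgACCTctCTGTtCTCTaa
Gem (chromosome 4, plus strand): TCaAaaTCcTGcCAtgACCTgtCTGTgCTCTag
Rem1 (chromosome 2, plus strand): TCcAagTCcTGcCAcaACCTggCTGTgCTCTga
Rem2 (chromosome 14, plus strand): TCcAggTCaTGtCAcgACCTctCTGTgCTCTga
The fourth codon of the stretch encodes cysteine in each gene. The unusual G3 motif, an aspartate, any residue, a tryptophan and a glutamate, is set in capitals in the following 36 bases of each coding sequence.
Rrad: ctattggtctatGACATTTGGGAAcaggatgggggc
Gem: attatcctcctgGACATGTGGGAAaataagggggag
Rem1: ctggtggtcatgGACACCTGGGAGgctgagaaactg
Rem2: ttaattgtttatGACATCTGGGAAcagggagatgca
Codons for this motif occurred in frame in each RGK coding sequence, in 0 of 31 other Ras family coding sequences and in 435 of 20707 coding sequences of the table, or 2.1%. Over whole coding sequences, Rrad matched Gem at 66.6%, Rem1 at 67.2% and Rem2 at 67.4% of aligned bases, and the 3 pairs without Rrad matched at 63.7% to 64.1%.

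The members differed widely in level. Rrad (ENSMUSG00000031880.7, chromosome 8 from 104628070 to 104631327, minus strand, GRCm38, 5 exons) had a mean rlog of 11.80 over the 6 libraries, above 95.6% of the 13094 genes tested, those whose mean rlog reached 5. Rem1 (ENSMUSG00000000359.3, chromosome 2 from 152626951 to 152635194, plus strand, 5 exons) had a mean of 7.03, above 26.6% of those genes. Gem (ENSMUSG00000028214.13, chromosome 4 from 11705807 to 11714752, plus strand, 4 exons) had a mean of 6.89, above 24.4%. By mean rlog, which takes no account of row length, Rrad thus ranked high among the genes tested and the other measured members did not.

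Rem2 (ENSMUSG00000022176.11, chromosome 14 from 54476252 to 54479679, plus strand) was listed at 0 in all 6 libraries and could not be tested. Its row names a transcript of 3 exons and 543 coding bases, while the longer annotated transcript, whose sequence is printed above, has 5 exons and 1026 coding bases. Of all rows, 22778 were listed at 0 throughout. The level of the longer Rem2 transcript was not analysed here.

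Levels of different genes are compared after subtracting the log2 of each row's length in kb, a scale called rlog per length here. On this scale Rrad lay at 10.91 and 10.99 in T2D dnMCUb, 10.94 and 11.22 in T2D empty vector, against 11.43 and 11.43 in control. Rem1 lay between 6.23 and 6.36 and Gem between 5.84 and 6.02 over the 6 libraries. The order Rrad, Rem1, Gem held in every library. Rrad exceeded Rem1 by 4.59 to 5.20 and Gem by 4.89 to 5.57 rlog units per length, while Rem1 exceeded Gem by only 0.31 to 0.49. The gaps above Rem1 and Gem are wider than the range of Rrad over the libraries, 0.52. The gap between Rem1 and Gem is wider than the range of either, 0.13 and 0.17.

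**Figure D1:**
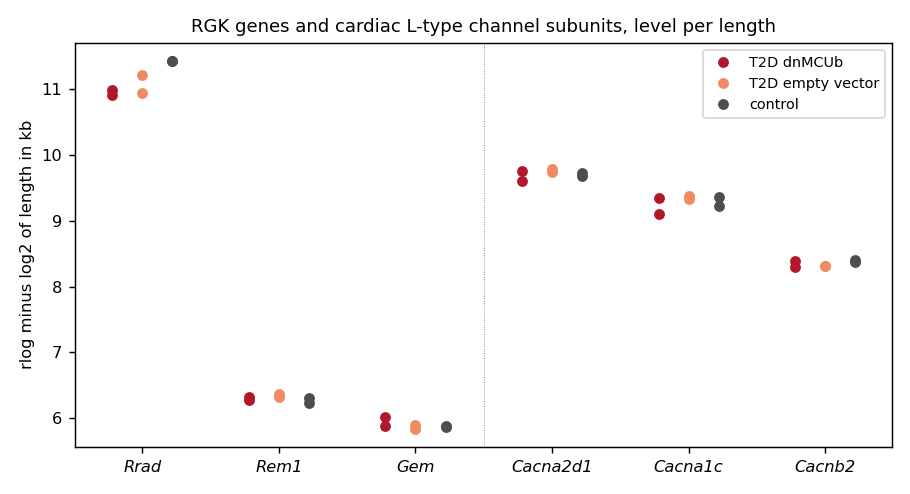
Level per length (rlog minus log2 of row length in kb, vertical axis) of 3 RGK genes, left of the dotted line, and 3 subunit genes of the cardiac L-type calcium channel, right of it, 1 point per library and 2 libraries per group. Rrad stands above all the others, between 10.91 and 11.43, and Rem1 and Gem stand below the channel genes.

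Set beside the channel that the family acts on, Rrad was the most abundant of the genes compared per length. Cacna2d1, the alpha 2 delta 1 subunit, had a mean rlog per length of 9.72, Cacna1c, the pore of the main cardiac L-type channel, 9.29, and Cacnb2, the main cardiac beta subunit, 8.35. Rrad had a mean of 11.15, Rem1 6.30 and Gem 5.90. These lengths are those of the 1 transcript each row names, and use of a different transcript would move them.

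Rrad was lower in both diabetic groups than in control. Its rlog was 11.56 and 11.64 in T2D dnMCUb, 11.59 and 11.87 in T2D empty vector, against 12.07 and 12.08 in control. All 4 diabetic libraries lay below both control libraries, which were nearly equal, and T2D empty vector library 2 was the highest of the 4. The share of all genes with such a split was not counted, so it is only described, here and for genes and sums below. Group means were 11.60 ± 0.06 in T2D dnMCUb, 11.73 ± 0.20 in T2D empty vector, against 12.08 ± 0.0032 in control (SD, n = 2 each).

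In T2D dnMCUb, Rrad differed from control by -0.48 (SE 0.09, limma fit over all genes), and 5 of the 13094 genes tested had a more negative difference. That place among genes depends on the rlog scale, which draws some genes in more than others. Akap5, described below, had a log2 fold of -0.91 in the authors' deposited table but an rlog difference of -0.31. For this comparison the authors' deposited table gives Rrad a log2 fold of -0.72, a ratio of 0.609 or a change of -39.1%, with an adjusted p of 3.23e-06. In the limma fit 0 of the 3 members tested were called at an adjusted p under 0.05, beside 0.0687% of genes, and 1, Rrad, had an unadjusted p under 0.05, beside 11.4%. Of the 3 members, 1 was called in the authors' deposited table. Beside it stand 0.357% of the 29159 genes counted there, and 104 of the 13094 genes tested here. Nothing is read from these counts, since the family was proposed with results known. Leaving out each library in turn gave differences between -0.52 and -0.44.

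In T2D empty vector, Rrad differed from control by -0.35 (SE 0.09), with 20 genes at a more negative difference on the rlog scale. The log2 fold in the authors' deposited table was -0.50, a ratio of 0.708, with an adjusted p of 0.767. Limma called 0 of the 3 members, beside 0% of genes, and 1 had an unadjusted p under 0.05, beside 6.13%. Of the 3 members, 0 were called in the authors' deposited table, beside 0.255% of all genes counted there and 71 of the 13094 genes tested here. The size of the difference rested on which empty vector library was kept, at -0.20 without library 1 and -0.49 without library 2.

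Between the diabetic groups, Rrad in T2D dnMCUb differed from T2D empty vector by -0.13 (SE 0.09), and the groups overlapped, since empty vector library 1, at 11.59, lay between the dnMCUb libraries. The log2 fold in the authors' deposited table was -0.21, with an adjusted p of 0.99993. The difference was -0.27 without T2D empty vector library 1 and 0.01 without library 2. By limma 0 of the 3 members were called and 0 had an unadjusted p under 0.05, beside 0% and 5.64% of genes, and 0 were called in the authors' deposited table, beside 0.0311%. A difference of Rrad between the diabetic groups was not shown.

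**Figure D2:**
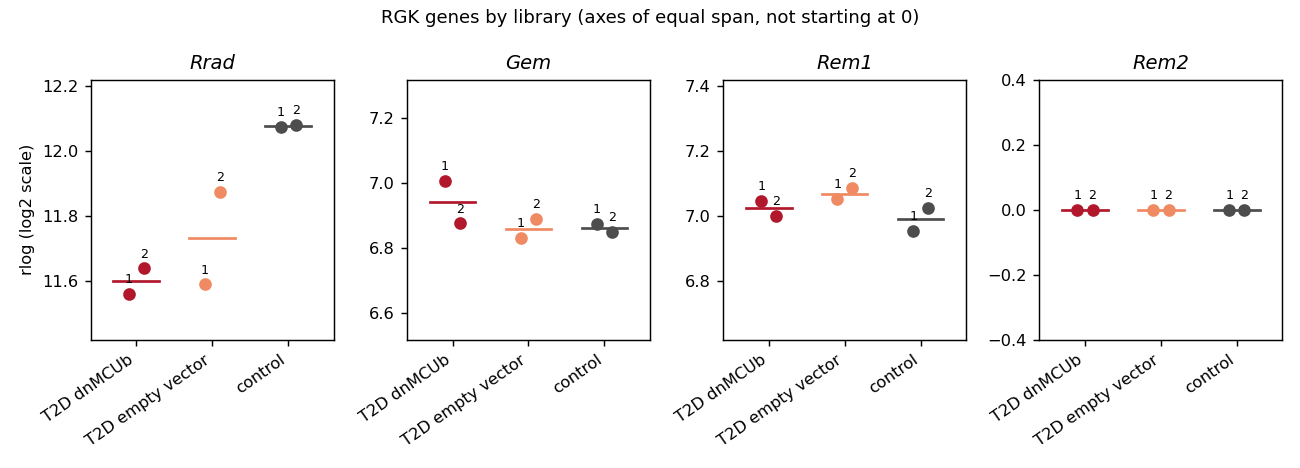
Rlog (log2 scale, vertical axes of equal span that do not start at 0) of each RGK gene in the 3 groups, 1 numbered point per library and a line at the mean of 2 libraries. For Rrad both control libraries, at 12.07 and 12.08, lie above the 4 diabetic libraries, at 11.56 to 11.87, while Gem and Rem1 stay within 0.17 and 0.13 rlog over all libraries and Rem2 is listed at 0.

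Gem did not share the pattern of Rrad. Gem, an RGK gene known for induction by mitogens, had an rlog of 7.01 and 6.88 in T2D dnMCUb, 6.83 and 6.89 in T2D empty vector, against 6.87 and 6.85 in control. The highest value was library 1 of T2D dnMCUb, and the other 5 libraries lay between 6.83 and 6.89. The difference was 0.08 (SE 0.05) between T2D dnMCUb and control, 0.08 (SE 0.05) between T2D dnMCUb and T2D empty vector, and -0.00097 (SE 0.048) between T2D empty vector and control. Without library 1 of T2D dnMCUb the first 2 were 0.01 and 0.02, and without library 2 they were 0.14 and 0.15. The authors' deposited table gives log2 folds of 0.34, 0.35 and -0.0060, with adjusted p of 0.999997, 0.99993 and 0.999725.

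Rem1, which is expressed in heart and like Rad inhibits calcium channels, differed by at most 0.08 rlog between groups. Its rlog was 7.05 and 6.9999 in T2D dnMCUb, 7.05 and 7.09 in T2D empty vector, against 6.95 and 7.03 in control. The T2D empty vector libraries lay just above both others, and T2D dnMCUb and control overlapped. Rem1 differed by 0.03 (SE 0.04) between T2D dnMCUb and control, by -0.05 (SE 0.04) between T2D dnMCUb and T2D empty vector and by 0.08 (SE 0.04) between T2D empty vector and control. The last value was 0.04 without control library 1 and 0.12 without control library 2. Its log2 folds in the authors' deposited table, in the same order, were 0.13, -0.17 and 0.31, with adjusted p of 0.999997, 0.99993 and 0.999725. The values of Rem1 and Gem depend on the scale. Relative to the mean of the cardiomyocyte markers described next, Rem1 differed from control by 0.25 in T2D dnMCUb and 0.22 in T2D empty vector, and Gem by 0.30 in T2D dnMCUb and 0.14 in T2D empty vector. On that scale Rrad differed from control by -0.26 in T2D dnMCUb. Between T2D dnMCUb and T2D empty vector, Rem1 was then at 0.03, the opposite sign, and Gem at 0.15.

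Groups without overlap were common among all genes. In T2D dnMCUb against control 2 of the 3 members had them, beside 42.9% of genes, Rrad being lower, as were 22.7%, and Gem higher, as were 20.2%. In T2D empty vector against control 2 of the 3 had them, beside 42.4%, Rrad being lower, as were 22.5%, and Rem1 higher, as were 19.9%. Between the diabetic groups 1 of the 3 had them, beside 32.2%, Rem1 being lower, as were 16.5%. Such a share of members is not a result about the family.

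Heart muscle markers were also lower in the diabetic libraries. Of 10 cardiomyocyte markers, 10 were lower in T2D dnMCUb than in control (median -0.20) and 9 were lower in T2D empty vector than in control (median -0.17), with 0 called by limma in either, and 2 and 1 at an unadjusted p under 0.05. The authors' deposited table calls 2 of the 10 in T2D dnMCUb against control, Tnnc1 at a log2 fold of -0.48 (adjusted p 0.0136) and Mybpc3 at -0.46 (adjusted p 0.0332). In T2D empty vector against control, where it does not call Rrad, the authors' deposited table calls 3 of the 10, Myl2 at -0.30 (adjusted p 0.0342), Tnnc1 at -0.30 (adjusted p 0.0410) and Mybpc3 at -0.31 (adjusted p 0.0296). The 3 genes encode sarcomere proteins. Over all 13094 genes tested, 11.4% had an unadjusted p under 0.05 by limma in T2D dnMCUb against control. The share was 6.13% in T2D empty vector against control and 5.64% between the diabetic groups. The authors' deposited table calls 104, 71 and 8 of the 13094 in the same order. These shares are the background for the counts of each list here and below. The summed level of the 10 markers, as a log2 of summed linear values, was 20.08 and 20.35 in T2D dnMCUb, 20.28 and 20.27 in T2D empty vector, against 20.45 and 20.37 in control, and 0 of the 10 were at 0. Relative to the mean rlog of these markers in the same library, Rrad stood at -4.63 and -4.77 in T2D dnMCUb, -4.80 and -4.48 in T2D empty vector, against -4.46 and -4.42 in control. On that scale its difference from control was -0.26 in T2D dnMCUb and -0.20 in T2D empty vector, and all 4 diabetic libraries still lay below both controls, though empty vector library 2 did so only just. In bulk tissue, fewer cells of a type and less RNA per cell cannot be told apart.

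In T2D dnMCUb, markers of several other cell types were mostly higher than in control. In T2D empty vector macrophage and fibroblast markers were mostly higher, while the nerve, smooth muscle and endothelial lists were evenly split. Macrophage markers, all 10 tested, were higher than in control for 10 of 10 in T2D dnMCUb (median 0.17, 0 called by limma, 5 at an unadjusted p under 0.05) and for 8 of 10 in T2D empty vector (median 0.03, 0 called, 0 at an unadjusted p under 0.05). Their summed levels were 12.84 and 12.67 in T2D dnMCUb, 12.65 and 12.58 in T2D empty vector, against 12.59 and 12.58 in control, so the groups meet at the low end. Fibroblast markers were higher than in control for 8 of 8 in each diabetic group (medians 0.26 in T2D dnMCUb and 0.10 in T2D empty vector, 0 called and 0 at an unadjusted p under 0.05 in both). The fibroblast sums were 15.43 and 14.91 in T2D dnMCUb, 14.83 and 15.13 in T2D empty vector, against 14.94 and 14.83 in control, and these overlap. Endothelial markers, all 8 tested, were higher than in control for 6 of 8 in T2D dnMCUb and 4 of 8 in T2D empty vector. Their medians were 0.03 and 0.00039, with 0 called by limma in either. In these comparisons 2, 1 of them lower, and 0 had an unadjusted p under 0.05. Their summed levels overlapped, at 14.70 and 14.81 in control and 14.78 to 14.82 in the diabetic groups.

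Nerve and Schwann cell markers, 4 of 8 tested, were higher than in control for 4 of 4 in T2D dnMCUb (median 0.10, 0 called by limma, 2 at an unadjusted p under 0.05) and for 2 of 4 in T2D empty vector (median 0.03, 0 called, 0 at an unadjusted p under 0.05). Their sums were 8.77 and 8.68 in T2D dnMCUb, 8.65 and 8.69 in T2D empty vector, against 8.62 and 8.63 in control, with the 4 diabetic libraries above both controls. Smooth muscle markers were higher than in control for 5 of 6 in T2D dnMCUb (median 0.23) and 3 of 6 in T2D empty vector (median -0.0023), with 0 called and 0 at an unadjusted p under 0.05 in both. The smooth muscle sums were 13.46 and 12.69 in T2D dnMCUb, 12.62 and 13.05 in T2D empty vector, against 12.90 and 12.84 in control, and these overlap.

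Pericyte markers were mostly lower, by much less than Rrad. In T2D dnMCUb 6 of 6 were lower than in control (median -0.05, 0 called, 1 at an unadjusted p under 0.05), and in T2D empty vector 4 of 6 (median -0.03, 0 called, 0 at an unadjusted p under 0.05). The pericyte sums were 15.08 and 15.09 in T2D dnMCUb, 15.11 and 15.10 in T2D empty vector, against 15.13 and 15.23 in control, with the 4 diabetic libraries below both controls. By the mean rlog of the 6 markers the groups overlapped, T2D empty vector library 2 at 11.24 lying above control library 1 at 11.22. Red cell markers split the control libraries, with sums of 12.47 and 13.00 in T2D dnMCUb, 11.71 and 11.74 in T2D empty vector, against 12.64 and 11.72 in control, while Rrad was nearly equal in those controls. The authors' deposited table calls 5 of the 5 tested red cell markers higher with dnMCUb than with the empty vector, and limma calls 0 of them, with 5 at an unadjusted p under 0.05. Atrial sums were 12.65 and 11.19 in T2D dnMCUb, 11.18 and 11.35 in T2D empty vector, against 12.01 and 11.69 in control. None of these lists of other cell types had a marker at 0 in all libraries, and their part in the result for Rrad was not tested.

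Subunits of the calcium channels did not pass the test in any comparison. Of 26 subunit genes, 13 were tested, and limma called 0 in each of the 3 comparisons. In T2D dnMCUb against control 4 were higher and 9 lower, with a median of -0.02 and a range of -0.26 to 0.23, and 2 had an unadjusted p under 0.05. T2D empty vector against control had 5 higher and 8 lower, with the same rounded median of -0.02 and 1 at an unadjusted p under 0.05. Between T2D dnMCUb and T2D empty vector 8 were higher and 5 lower, with a median of 0.0041 and 1 at an unadjusted p under 0.05. The median over all genes tested was between -0.0025 and -0.00051 in the 3 comparisons, and the authors' deposited table called 0 of the 13 in each.

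Cacna1c rlog was 12.00 and 12.25 in T2D dnMCUb, 12.23 and 12.28 in T2D empty vector, against 12.27 and 12.13 in control. The groups overlapped in every comparison, with a difference of -0.07 (SE 0.09, limma adjusted p = 0.753) in T2D dnMCUb and of 0.06 (SE 0.09, adjusted p = 0.925) in T2D empty vector against control. Cacnb2, whose product the RGK proteins bind, had 8.06 and 8.16 in T2D dnMCUb, 8.08 and 8.08 in T2D empty vector, against 8.14 and 8.17 in control. Its differences from control were -0.05 (SE 0.04, limma adjusted p = 0.687) and -0.07 (SE 0.04, adjusted p = 0.841) in T2D dnMCUb and T2D empty vector. Cacna2d1 differed from control by -0.03 (SE 0.06) and 0.06 (SE 0.06) in these groups. For these 3 subunits of the cardiac L-type channel the differences were smaller than that of Rrad in the same libraries, but the difference between genes was not tested.

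Of the other channel genes, Cacna1s, the pore of the skeletal muscle L-type channel, was the one nearest to Rrad in direction. Its rlog was 8.52 and 8.61 in T2D dnMCUb, 8.74 and 8.56 in T2D empty vector, against 8.81 and 8.83 in control, with a difference from control of -0.26 (SE 0.06, limma adjusted p = 0.215) in T2D dnMCUb. In T2D empty vector the difference was -0.17 (SE 0.06, limma adjusted p = 0.805). Cacna1h, a T-type pore gene, was at 8.53 and 8.34 in T2D dnMCUb, 8.02 and 8.15 in T2D empty vector, against 8.36 and 8.05 in control. It differed by 0.35 (SE 0.11, limma adjusted p = 0.784) between the diabetic groups, and control library 1 lay above T2D dnMCUb library 2. Cacna2d2, an alpha 2 delta gene, and Cacng7, a gamma gene, differed from control by -0.04 and -0.02 in T2D dnMCUb. In T2D empty vector Cacna2d2 differed from control by -0.10 rlog. Its log2 fold there in the authors' deposited table was -0.71 (adjusted p 0.999725), more negative than the -0.50 of Rrad. Cacna1g, the other T-type pore gene, differed from control by 0.16 (SE 0.13) in T2D dnMCUb, and the beta genes Cacnb1, Cacnb3 and Cacnb4 by -0.08, 0.03 and -0.00047. The authors' log2 folds against control, in T2D dnMCUb and T2D empty vector, were -0.57 and -0.36 for Cacna1s (adjusted p 0.188 and 0.999725). For Cacnb1 they were -0.48 and -0.33 (adjusted p 0.999997 and 0.999725), larger than its rlog differences. In T2D dnMCUb against control Cacna1h, Cacna1g, Cacnb3 and Cacna1d had positive folds there, at 0.54, 0.43, 0.25 and 0.13.

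**Figure D3:**
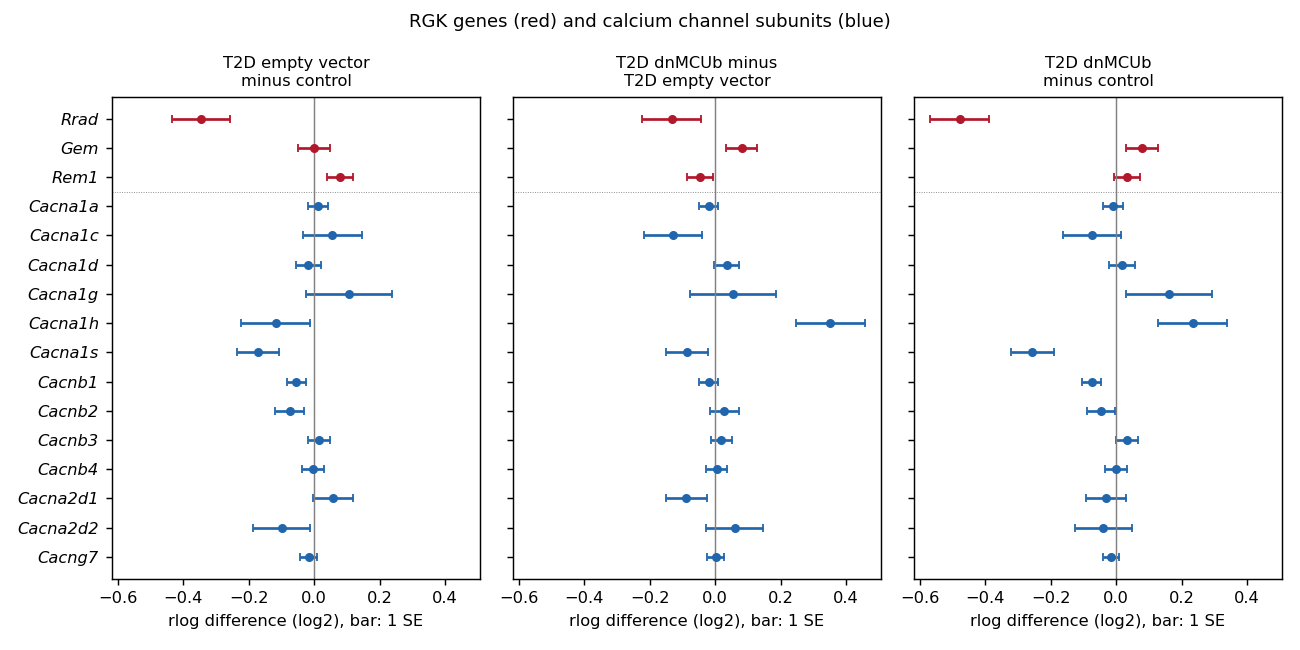
Rlog differences (log2, horizontal axis) with bars of 1 limma standard error for 3 RGK genes in red and the 13 channel subunit genes tested in blue, in 3 comparisons of 2 libraries against 2. On the rlog scale Rrad has the most negative value in both comparisons with control, at -0.48 with dnMCUb and -0.35 with the empty vector. The channel genes lie between -0.26 and 0.35. In the authors' deposited table Cacna2d2 has a more negative log2 fold than Rrad in T2D empty vector against control, at -0.71 against -0.50.

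Protein kinase A, which releases Rad from the channel, was represented by 15 tested genes for subunits and anchoring proteins. Limma called 0 of them in each comparison, with 2, 3 and 0 at an unadjusted p under 0.05 in T2D dnMCUb against control, T2D empty vector against control and T2D dnMCUb against T2D empty vector. In T2D dnMCUb against control 5 were higher and 10 lower, with a median of -0.04. Prkar1a, a regulatory subunit, was at 12.86 and 12.90 in T2D dnMCUb, 12.88 and 12.92 in T2D empty vector, against 13.08 and 13.08 in control, so that the 4 diabetic libraries lay below both controls as for Rrad. Its differences from control were -0.20 (SE 0.06, limma adjusted p = 0.271) in T2D dnMCUb and -0.18 (SE 0.06, adjusted p = 0.759) in T2D empty vector. Akap5, an anchor that places the kinase at membrane channels, had 7.60 and 7.54 in T2D dnMCUb, 7.64 and 7.72 in T2D empty vector, against 7.84 and 7.93 in control. It is named because the authors' deposited table calls it in T2D dnMCUb against control, at a log2 fold of -0.91 and an adjusted p of 0.0252, whereas limma gave -0.31 (SE 0.05, adjusted p = 0.0742). Akap6, Akap13 and Akap1, the anchors with the highest mean rlog without regard to length, differed from control in T2D dnMCUb by -0.15, 0.06 and -0.16.

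Proteins reported to bind RGK members, among them the 14-3-3 proteins, gave 18 tested genes, of which limma called 0 in each comparison. In T2D dnMCUb against control 13 were higher and 5 lower, with a median of 0.03 and 2 at an unadjusted p under 0.05. T2D empty vector against control had 8 higher and 10 lower, with a median of -0.0055 and 1 at an unadjusted p under 0.05. Between the diabetic groups 13 were higher with dnMCUb and 5 lower, with a median of 0.04 and 0 at an unadjusted p under 0.05. Rock1 and Rock2, which encode kinases of the actin cytoskeleton that Gem and Rad restrain, differed from control by 0.10 and 0.11 (SE 0.06 and 0.05) in T2D dnMCUb.

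Other Ras family GTPases stayed close to 0 on the rlog scale. Of 31 genes, 21 were tested and limma called 0 in each comparison, with 1, 2 and 0 at an unadjusted p under 0.05 in T2D dnMCUb against control, T2D empty vector against control and T2D dnMCUb against T2D empty vector. Their differences ran from -0.16 to 0.10 in T2D dnMCUb against control, with a median of -0.00042, and from -0.11 to 0.08 in T2D empty vector against control, with a median of -0.0074. Rras2, Rap1b and Rheb, which had the highest mean rlog without regard to length, were at 0.04, 0.04 and -0.03 in T2D dnMCUb against control. The rlog difference of Rrad, at -0.48 in T2D dnMCUb and -0.35 in T2D empty vector, lay outside both ranges. The authors' deposited table, which called 0 of the 21, sets the low end of the list nearer to Rrad. There Rasl10b, lowest in both ranges, had log2 folds of -0.62 and -0.39 (adjusted p 0.756 and 0.999725). Those of Rrad were -0.72 and -0.50.

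Genes of the programs that RGK genes belong to elsewhere were also listed. Immediate early genes, the class to which Gem belongs in mitogen-stimulated cells, were higher in T2D dnMCUb than in control for 24 of 25 tested, with a median of 0.20. Limma called 0 of them and 18 had an unadjusted p under 0.05, beside 11.4% of all genes tested. In T2D empty vector 23 of 25 were higher than in control (median 0.09, 0 called, 3 at an unadjusted p under 0.05), and 22 of 25 were higher in T2D dnMCUb than with the empty vector (median 0.10, 0 called, 4 at an unadjusted p under 0.05). Klf6, Ctgf, Jun and Btg2, highest of the list in mean rlog without regard to length, differed from control by 0.13, 0.40, 0.19 and 0.40 in T2D dnMCUb. Btg2 was called in the authors' deposited table at a log2 fold of 0.68 and an adjusted p of 0.0132. Gem, at 0.08 in T2D dnMCUb against control, was below the median of this list. Targets of p53, which include RRAD in human cells, had 17 tested genes, 10 higher and 7 lower in T2D dnMCUb than in control with a median of 0.0020, 0 called by limma and 6 at an unadjusted p under 0.05. The authors' deposited table calls 1 of the 17 in that comparison, Btg2, which is on both lists. T2D empty vector against control had 13 higher and 4 lower, with a median of 0.04, 0 called by limma and 1 at an unadjusted p under 0.05. Between T2D dnMCUb and T2D empty vector 8 were higher and 9 lower, with a median of -0.02, 0 called by limma and 3 at an unadjusted p under 0.05. Ccng1, Sesn1, Mdm2 and Tigar, highest of this list in mean rlog without regard to length, differed from control by -0.21, -0.02, -0.01 and -0.17 in T2D dnMCUb.

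Among all genes tested, the 3 whose pattern over the 6 libraries was most like that of Rrad were Irs1, Sox4 and Hk1. Likeness was the root mean square difference of mean-centred rlog, at 0.073, 0.0857 and 0.09 rlog units. The median gene was at 0.221, near what a gene flat over the libraries would score. That median therefore reflects the spread of Rrad itself. No other member varied by 0.3 rlog, the least for which likeness was computed. Irs1, the insulin receptor substrate, had 9.96 and 10.03 in T2D dnMCUb, 10.06 and 10.12 in T2D empty vector, against 10.41 and 10.39 in control. Sox4, a transcription factor, had 9.19 and 9.25 in T2D dnMCUb, 9.34 and 9.51 in T2D empty vector, against 9.59 and 9.57 in control. Hk1, a hexokinase, had 11.09 and 11.15 in T2D dnMCUb, 11.06 and 11.21 in T2D empty vector, against 11.40 and 11.41 in control. In each of the 3 the diabetic libraries lay below both controls. They were picked on these same values, so this is a description.

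**Figure D4:**
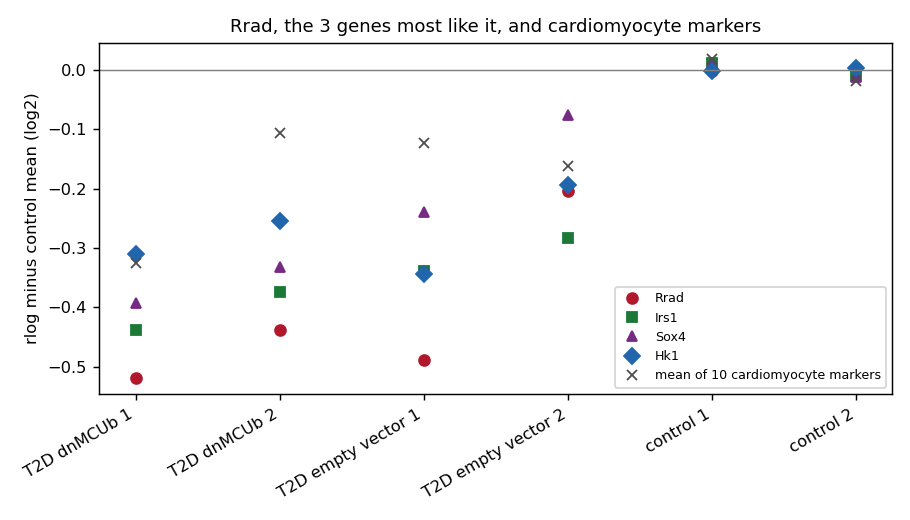
Rlog minus the mean of the 2 control libraries (log2, vertical axis) in each library for Rrad, the 3 genes most like it and the mean of 10 cardiomyocyte markers. All 5 lie below 0 in the 4 diabetic libraries, and Rrad lies below the marker mean in each of them.

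The nearest row checked beside Rrad, Gm33023, of the file's antisense gene type, does not overlap it. Gm33023 begins on the plus strand at 104631438 of chromosome 8, 111 bases beyond the end of Rrad, in the row's coordinates. Its rlog lay between 3.85 and 3.87 in all 6 libraries, far below that of Rrad, and the authors' deposited table does not call it in any comparison. The strand setting of the counting is not given in the sources used here.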

How the data were processed

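Per the labels' protocols, mouse heart RNA was depleted of ribosomal RNA and made into stranded libraries. Tools named in the submitters' processing notes are STAR 2.5.2a, bcl2fastq 2.20.0.422 and DESeq2, and the builds are hg38, mm10 and GRCm38. How reads were counted, with which strand setting and filters, is not given in the sources used here. The authors deposited rlog values on the log2 scale, and, for 3 comparisons, log2 folds with raw and adjusted p-values. Their log2 folds had the sign of the second group over the first in all 72, 9 and 104 genes they called, and rlog differences were smaller than these folds, by a median ratio of 0.577, 0.463 and 0.509 (T2D empty vector against control, dnMCUb against empty vector, dnMCUb against control). Of the value columns, 0 were unused. With no counts there is no interval for counting error. Gapdh and Ppia, used by every cell, were at mean rlog of 4.78 and 3.08; both have many close copies, and how reads shared with them were treated is not given.

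Differences were fitted with limma 3.58.1 in R 4.3.3 to the 6 libraries of 3 groups at once (3 residual degrees of freedom, 4.60 more from the prior, mean-variance trend), over the 13094 genes whose mean rlog reached 5, with Benjamini-Hochberg adjustment at 0.05. The code was tested on simulated data. Coding sequences came from GENCODE M21 and were aligned with Biopython 1.88. The members and gene lists were chosen with earlier results of these data known. Named genes are the 4 members, up to 4 tested genes of each pathway list with the highest mean rlog, Akap5 and Btg2 as called in the authors' deposited table, 3 fixed channel subunits and 3 genes most like Rrad. Rasl10b was named as the other Ras gene with the lowest rlog differences from control. The markers named were chosen after their values were seen. Some genes that the rule names are not reported here.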

Additional observations from a re-analysis of the deposited data

How the results depend on the processing

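The members' differences kept within 1 SD of the spread between libraries under the replicate block, library median centring, quantile normalization, lower filters, a constant prior and fits to the 2 groups compared. With the replicate block the differences are the same by construction, at -0.48 and -0.35 for Rrad in T2D dnMCUb and T2D empty vector against control. Relative to cardiomyocyte markers, an alternative chosen after seeing the data, Rrad was at -0.26 in T2D dnMCUb against control and -0.20 in T2D empty vector against control. Rem1 was at 0.25 and 0.22 and Gem at 0.30 and 0.14 in these comparisons, and between T2D dnMCUb and T2D empty vector Rem1 was at 0.027 and Gem at 0.15. Leaving out each library in turn gave ranges for Rrad of -0.52 to -0.44 in T2D dnMCUb against control, -0.49 to -0.20 in T2D empty vector against control and -0.27 to 0.0097 between the diabetic groups. For Gem the ranges were 0.015 to 0.14, -0.03 to 0.03 and 0.016 to 0.15 in the same order. For Rem1 they were -0.0017 to 0.07, 0.04 to 0.12 and -0.07 to -0.02. The order of levels per length was the same without any library, as it had to be, since it held in every library. A group left with 1 library is assumed to vary like the others.

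Counts of called genes were unstable. In T2D dnMCUb against control limma called 9 genes, 14 with a filter at 3, and 0 with no filter, with a constant prior, with quantile normalization, with the replicate block and with only the 2 groups compared. Leaving out each library gave 0 to 743. It was 743 without T2D dnMCUb library 2, when Rrad was among the calls, 89 without T2D dnMCUb library 1, 1 without control library 2, and 0 without control library 1 or either empty vector library. In T2D empty vector against control the count was 0, with 30 when only those groups were fitted and 0 to 30 leaving out each library, 30 being reached without either T2D dnMCUb library. Between the diabetic groups it was 0, with 0 to 14 leaving out each library, 14 without T2D dnMCUb library 1. Of the 108 tested genes of the pathway lists 0 were called, with 0 to 12 in T2D dnMCUb against control leaving out each library. Same-numbered libraries of T2D empty vector and T2D dnMCUb deviated in opposite directions (correlation over genes -0.511). The other pairs of groups were at -0.0876 and -0.0133. Each group gives only 1 difference between its libraries, so these correlations cannot tell whether the numbers pair libraries. With the numbers of T2D dnMCUb swapped and a replicate block, 33 genes were called in T2D dnMCUb against control, 1 of them on the pathway lists. The causes were not tested. With 2 libraries a group and no counts, depth cannot be weighed for any member.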
